A study of Mus musculus with 20 samples.

Results

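Epithelial to mesenchymal transition (EMT) regulators were followed as a named set of 10 genes across mouse mammary organoids and tumors. The set was Cdh1, Cdh2, Vim, Zeb1, Zeb2, Snai1, Twist1, Twist2, Epcam and Esrp1, taken by symbol and not by any measured value. All 10 were found among the 45318 genes of the count tables, and all 10 passed the filter on low counts that left 18698 genes to test. In the annotation used (GENCODE M21, build GRCm38), the epithelial genes lie with Cdh1 at chr8:106603351-106670246, Epcam at chr17:87635979-87651129 and Esrp1 at chr4:11331933-11386783. The mesenchymal pair lies with Cdh2 at chr18:16588877-16809246 and Vim at chr2:13573927-13582826, and the factors with Zeb1 at chr18:5591860-5775467, Zeb2 at chr2:44983632-45117395, Snai1 at chr2:167538195-167542814, Twist1 at chr12:33957671-33959829 and Twist2 at chr1:91801461-91848028.

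Polyadenylated RNA was sequenced from 20 samples, all of the FVB strain. Wild type mammary glands gave 3 libraries of organoids, small fragments of gland kept for 6 days in matrigel with the growth factor FGF2 (WT organoids). MMTV-PyMT tumors, in which a mouse mammary tumor virus promoter drives the polyoma middle T antigen in mammary epithelium, gave 3 libraries of 30 µm cryosections (PyMT tumor), 3 of organoids taken at day 0 without culture, 3 of organoids titled day 6 and 2 of organoids with no day in the title but with 6 days of culture in the labels (undated). MMTV-Neu-NDL tumors, which carry an activated form of the Neu (ErbB2) receptor under the same promoter, gave 3 libraries of organoids after 6 days (Neu-NDL organoids). MMTV-Cre;Flox-Neo-Neu-NT tumors, where Cre expressed in mammary epithelium turns on a different activated Neu, gave 3 cryosection libraries (Neu-NT tumor). The labels give no age or tumor stage, and nothing in them ties a replicate to an animal of its own. The p-values therefore reflect only how these samples varied, and that variation may be technical. The wild type libraries used here are all cultured organoids, so in a comparison of tumor sections with WT organoids the tumor and the kind of sample cannot be told apart.

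In an epithelial to mesenchymal transition, cells loosen the junctions that hold an epithelial sheet together and take on traits of migrating mesenchymal cells. The transcription factors of the Snai, Zeb and Twist families drive the change, and those of the Snai and Zeb families bind a short DNA motif called an E-box at the E-cadherin gene and repress it. The miR-200 family of microRNAs acts against Zeb1 and Zeb2 through sites in the 3′ untranslated regions (UTRs) of their messages, and Zeb1 and Zeb2 in turn repress the miR-200 genes. In a mammary tumor the same mesenchymal genes are also made by fibroblasts, macrophages and vessel cells, so that their level in a bulk sample depends on which cells the sample holds.

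The miR-200 family is shown first because its target sites set Zeb1 and Zeb2 apart from the other members in sequence. All 5 mature sequences were taken from RefSeq (build GRCm38.p6). The seed, bases 2 to 8 from the 5′ end, is in capitals, and the first pair shares one seed and the other three share another.
mmu-miR-141-3p: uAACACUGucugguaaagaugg
mmu-miR-200a-3p: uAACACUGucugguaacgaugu
mmu-miR-200b-3p: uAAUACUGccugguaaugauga
mmu-miR-200c-3p: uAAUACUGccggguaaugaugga
mmu-miR-429-3p: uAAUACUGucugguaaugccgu

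The letters complementary to these seeds, CAGTGTT and CAGTATT, were searched on the sense strand of the longest annotated 3′ UTR of each gene (GENCODE M21). Zeb1 held 9 matches in 2401 bases, 4 of CAGTGTT and 5 of CAGTATT. Zeb2 held 9 in 4941 bases, with the same split. Of 21037 genes with a 3′ UTR, 25.7% held at least 1 match and 0.0143% held 9 or more. Snai1 held 1 match (CAGTATT), and the other 7 members held none. The first match to each seed in the Zeb2 UTR, starting at bases 209 and 393 counted from the base after the stop codon, is printed with the matched letters in capitals. A match is a description of the letters and does not show a working site.
Zeb2, match to the miR-141 and miR-200a seed: attttgtaCAGTGTTaaggccta
Zeb2, match to the miR-200b, miR-200c and miR-429 seed: ccatacatCAGTATTttattatt

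Promoter windows were searched for the E-box hexamer CACCTG and its reverse complement CAGGTG, the form bound by Snai and Zeb factors. RefSeq windows of 250 bases before to 50 bases after the start were given for 6 members: Vim, Zeb2, Snai1, Twist1, Twist2 and Epcam. Of 32851 such windows over all genes, 20.21% held at least 1 hexamer and 2.88% held at least 2. Epcam held 2, with first bases 187 and 19 bases before the start, and Snai1 held 1, which begins 126 bases before the start. The windows of the other 4 held none, which says nothing about binding outside these windows. The 250 bases upstream of both genes are printed because they are the members with a hexamer, which is in capitals.
Epcam, chr17:87635729-87635978 (GRCm38.p6, + strand): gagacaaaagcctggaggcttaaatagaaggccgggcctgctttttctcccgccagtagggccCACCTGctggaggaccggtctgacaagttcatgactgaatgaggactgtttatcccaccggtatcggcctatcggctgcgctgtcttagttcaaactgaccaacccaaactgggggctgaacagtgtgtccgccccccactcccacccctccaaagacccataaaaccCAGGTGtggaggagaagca
Snai1, chr2:167537945-167538194 (GRCm38.p6, + strand): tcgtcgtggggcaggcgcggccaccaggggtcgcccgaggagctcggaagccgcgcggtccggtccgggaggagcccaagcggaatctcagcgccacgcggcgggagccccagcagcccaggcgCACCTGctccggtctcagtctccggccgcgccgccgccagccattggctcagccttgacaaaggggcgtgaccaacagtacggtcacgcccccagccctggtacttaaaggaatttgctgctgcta

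Levels are given as CPM, the reads of a gene scaled to a common library size. Reads counted on genes ranged from 17478357 (PyMT tumor replicate 2) to 48341438 (Neu-NDL replicate 1) per library. Luminal epithelial markers (10 genes) summed to between 2593 and 8411 CPM in every library, so all samples held luminal epithelial RNA. Sums of 11 fibroblast, 12 macrophage and myeloid and 10 myoepithelial markers differed widely within groups. PyMT day 6 replicate 3 held 2996 CPM of fibroblast and 666 CPM of macrophage markers, against 133 and 86.1 CPM and 30.8 and 42.2 CPM in replicates 1 and 2. Neu-NDL replicate 1 held 3533 CPM of fibroblast markers against 214 and 258 CPM in replicates 2 and 3. Neu-NT replicate 3 held 2887 CPM of myoepithelial markers against 148 and 106 CPM. In that group the keratin genes Krt14 and Krt17 had the highest means of the list (486 and 362 CPM), while Krt5 averaged 8.88 CPM against 861 CPM in WT organoids. None of these 33 markers was at 0 in a whole group. Results that rest on these libraries are given with and without them.

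The epithelial genes were abundant everywhere and the transition factors were rare. Per kilobase of exon, the median over the 20 libraries was 585 CPM for Epcam, 114 for Cdh1, 50.8 for Vim and 44.5 for Esrp1. The same median was 4.86 for Snai1, 1.52 for Twist1, 0.647 for Zeb1, 0.455 for Zeb2, 0.421 for Cdh2 and 0.0514 for Twist2. The lowest and highest group means lay within 1.94-fold for Cdh1, 2.01-fold for Esrp1, 2.04-fold for Epcam and 2.65-fold for Vim. They spanned 8.46-fold for Twist1, 8.97-fold for Snai1, 9.63-fold for Zeb1, 15.7-fold for Zeb2 and 23.2-fold for Cdh2. Twist2 rests on few reads, 279 in all 20 libraries, of which 106 were in WT organoids and 121 in Neu-NDL organoids.

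**Figure D1:**
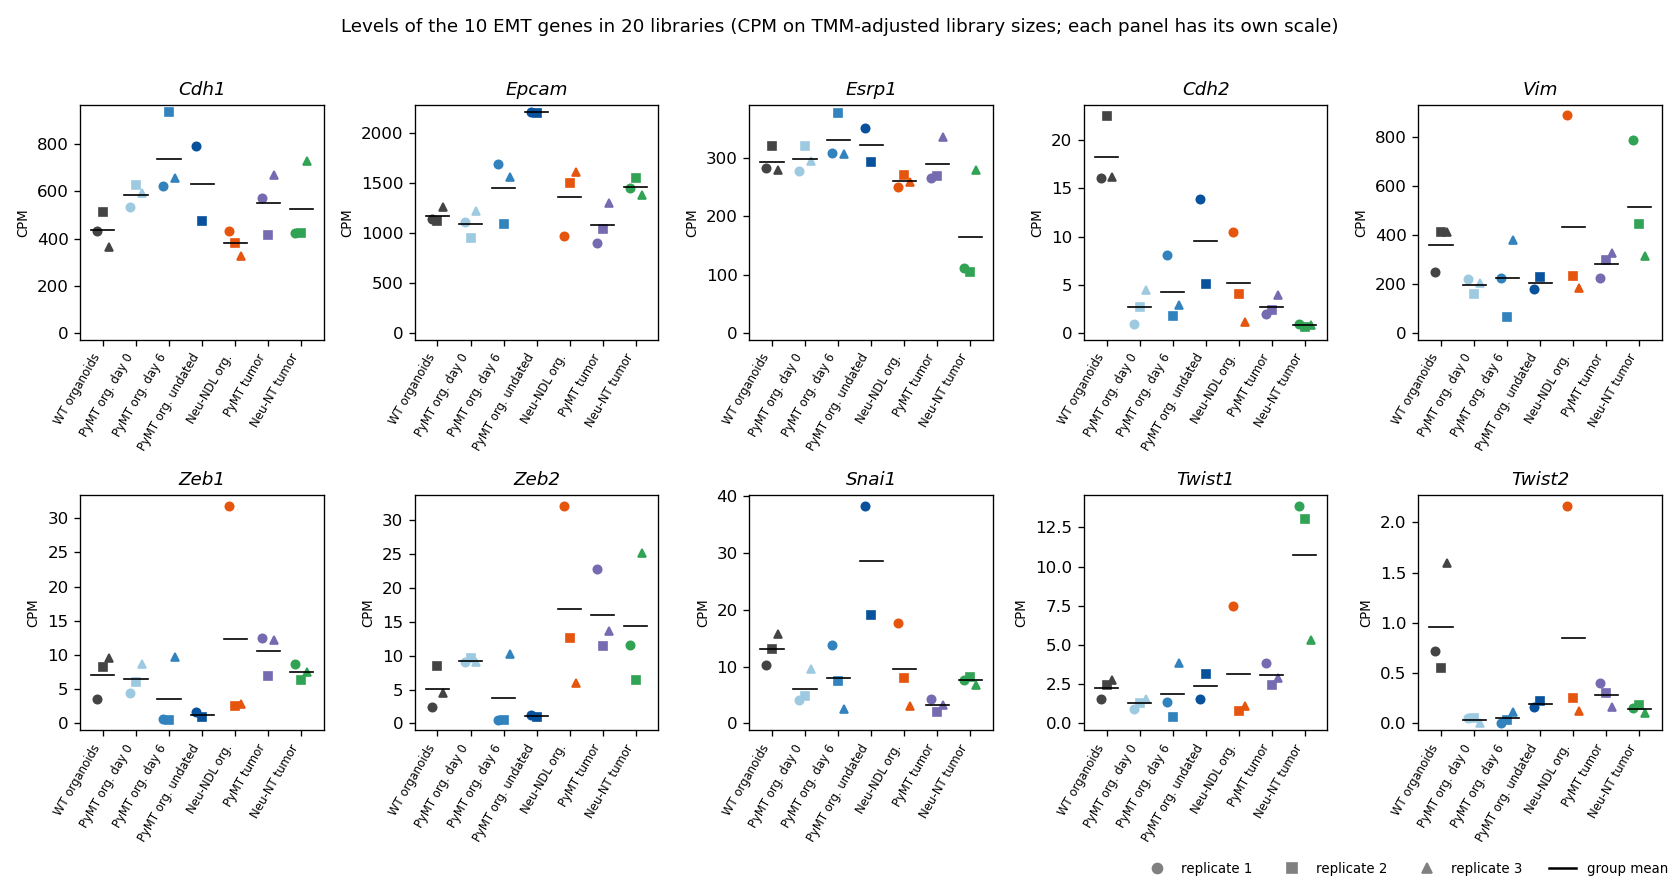
CPM (TMM-adjusted library sizes, linear axes from 0, each gene on its own scale) of the 10 genes in 20 libraries by group; symbols mark the replicate number and bars the group mean. Cdh2 is highest in the 3 WT organoid libraries (16.1 to 22.6 CPM), Neu-NDL replicate 1 is the highest library for Vim, Zeb1, Zeb2 and Twist2, and Neu-NT replicates 1 and 2 are the highest for Twist1 and the lowest for Esrp1.

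Among the 10 members, no comparison with WT organoids called an epithelial gene lower together with a mesenchymal gene or transition factor higher. This holds for the edgeR fit of all 20 libraries. Neu-NT tumors did show such a pair, Twist1 higher and Esrp1 lower, in DESeq2 and without Neu-NT replicate 3. Outside the 10, the transition factors Snai3 and Foxc1 were called higher in Neu-NT tumors in the edgeR fit, where Esrp1 was called lower. A member was called where its adjusted p (Benjamini-Hochberg over 18698 genes, edgeR quasi-likelihood test) was under 0.05. In 6 day PyMT organoids (day 6 and undated averaged) 1 of 10 was called, lower, where 3.89% of all genes were called, 2.49% lower. In Neu-NDL organoids edgeR called 0 of 10 (background 4.52%, with 2.47% higher). Only Cdh2 had an unadjusted p under 0.05 there, and DESeq2 also called 0. In PyMT tumors 2 of 10 were called, both lower (background 12.5%, with 6.45% higher and 6.05% lower), and in Neu-NT tumors 2 of 10, both lower (background 19.0%, with 8.47% lower). In a set of 10, counts of 1 and 2 are near these shares and are not a result about the set. These 4 comparisons share the same 3 WT libraries, so their calls are not independent of each other. The members' median log2 fold changes were -0.43, 0.02, -0.07 and 0.18, beside 0.01, 0.02, 0.03 and 0.03 over all genes.

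**Figure D2:**
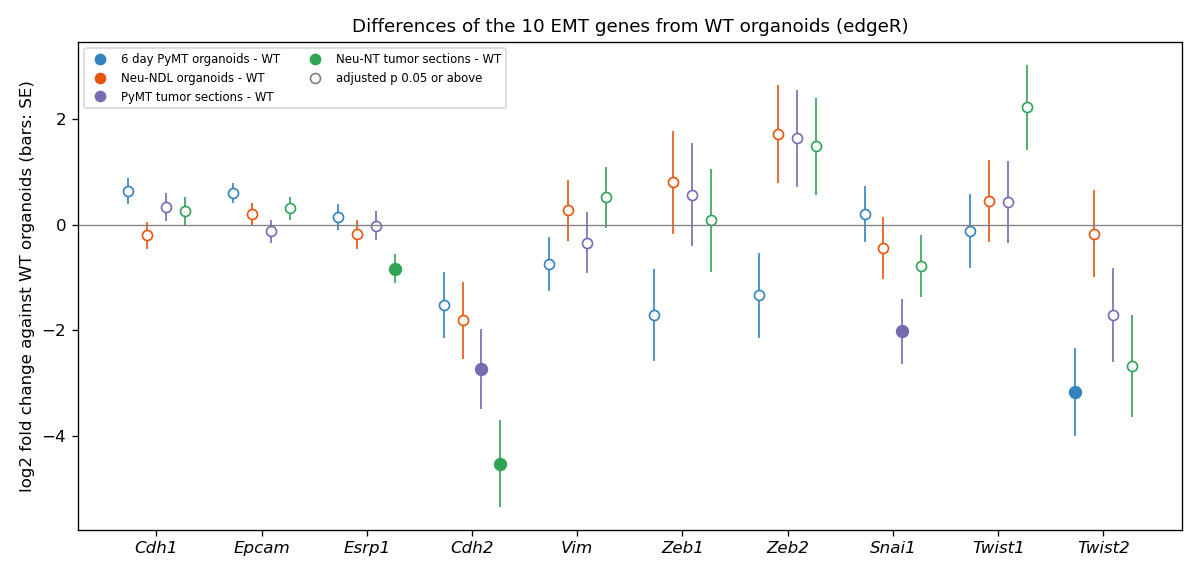
Log2 fold change against WT organoids with its standard error (bars) for each gene and each of the 4 comparisons, filled where the adjusted p is under 0.05. Filled points are Twist2 in 6 day PyMT organoids, Cdh2 and Snai1 in PyMT tumors, and Cdh2 and Esrp1 in Neu-NT tumors, all below 0.

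Cdh1 encodes E-cadherin, the adhesion molecule of epithelial junctions. It was at 432, 513 and 365 CPM in WT organoids and at 533, 627 and 595 CPM in PyMT organoids at day 0. The PyMT day 6 libraries had 622, 936 and 655 CPM and the undated ones 793 and 473 CPM. Neu-NDL organoids had 431, 381 and 328 CPM, below all 5 of the 6 day PyMT libraries. PyMT tumors had 571, 415 and 671 CPM and Neu-NT tumors 426, 423 and 729.9 CPM, and both overlapped the WT libraries. The group means ran from 738 ± 172 CPM (SD, n = 3) in PyMT day 6 down to 380.2 ± 51.5 CPM (SD, n = 3) in Neu-NDL organoids, with each step between neighbours within the larger of their SDs. Against 6 day PyMT organoids, Cdh1 was lower in Neu-NDL organoids (log2 fold change -0.85, SE 0.24, adjusted p = 0.0466). That call ended when any one of 7 of the 8 libraries compared was left out, with values from -1.01 to -0.64. Against WT organoids, Cdh1 in 6 day PyMT organoids differed by 0.65 (SE 0.24, adjusted p = 0.143), and by 0.72 (adjusted p = 0.0343) without PyMT day 6 replicate 3 and Neu-NT replicate 3.

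Epcam encodes an epithelial surface adhesion protein. It was the most abundant member per kilobase, at 1141, 1126 and 1265 CPM in WT organoids. The undated PyMT organoids, at 2218 and 2205 CPM, were above every other library, while PyMT day 6 organoids had 1696, 1092 and 1564 CPM and overlapped WT. Day 0 organoids (1116, 954 and 1220.1 CPM) and PyMT tumors (897, 1046 and 1302 CPM) also overlapped WT. Neu-NDL organoids had 972, 1507 and 1611 CPM, the lowest of them in the library with the most fibroblast markers. Neu-NT tumors had 1453, 1558 and 1381 CPM, all above WT. The difference between 6 day PyMT and WT organoids was 0.61 (SE 0.19, adjusted p = 0.0923), and it passed the threshold without the 2 libraries named above (0.61, adjusted p = 0.0494) and in DESeq2. In the order of group means only the step from undated PyMT organoids (2211 ± 9.09 CPM, SD, n = 2) to the next group exceeded the larger SD.

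Esrp1 encodes a splicing regulator that keeps epithelial forms of messages, among them that of the FGF receptor Fgfr2. It was the steadiest member outside 1 group: 17 libraries of the other 6 groups lay between 250.3 and 377 CPM. Neu-NT tumors had 111, 105 and 279 CPM, so replicates 1 and 2 stood below every other library and replicate 3 lay among them. Against WT organoids (282, 320.1 and 279 CPM) Esrp1 was lower in Neu-NT tumors by -0.83 on the log2 scale (SE 0.28, adjusted p = 0.0453). Without Neu-NT replicate 3 and PyMT day 6 replicate 3 the difference was -1.44 (adjusted p = 3.04e-05). That setting leaves out the Neu-NT library that lay among the other groups. The call ended when any other Neu-NT or WT library was left out. It also ended with only the libraries compared and with Neu-NT replicates 1 and 2 summed. PyMT tumors (266, 269.8 and 335 CPM) differed from Neu-NT tumors by 0.82 (SE 0.28, adjusted p = 0.0708), and by 1.41 (adjusted p = 5.49e-05) without the same 2 libraries. In Neu-NT replicates 1 and 2 the luminal markers summed to 2846 and 3478 CPM and in replicate 3 to 8411 CPM. In PyMT tumors, with the Esrp1 values above, they summed to 2886, 2593 and 5666 CPM. Neu-NDL organoids had sums of 3247, 3449 and 3874 CPM and Esrp1 at 250.3, 271 and 259 CPM. The part of the luminal marker differences in the Esrp1 values was not tested. In bulk samples fewer cells of a type and less RNA per cell cannot be told apart.

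Cdh2 encodes N-cadherin, a cadherin of nerve and mesenchymal cells whose gain is a usual sign of the transition. Here it was highest in normal gland organoids and lowest in a tumor. WT organoids had 16.1, 22.6 and 16.2 CPM and Neu-NT tumors 0.945, 0.586 and 0.828 CPM. PyMT tumors lay between them at 1.95, 2.36 and 3.92 CPM, and day 0 organoids at 0.987, 2.73 and 4.47 CPM. All WT libraries were above every library of the 6 other groups. The 6 day organoids were spread out, with 8.14, 1.78 and 2.87 CPM at PyMT day 6, 13.9 and 5.12 CPM in undated and 10.5, 4.02 and 1.11 CPM in Neu-NDL organoids. In the order of group means the step from WT (18.3 ± 3.73 CPM, SD, n = 3) to undated organoids and the step down to Neu-NT tumors (0.786 ± 0.183 CPM, SD, n = 3) exceeded the larger SD.

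In Neu-NT tumors Cdh2 fell by 4.53 on the log2 scale against WT organoids (SE 0.83, adjusted p = 0.00233). This was the only call on a member that remained when each of the 6 libraries compared was left out in turn (-4.68 to -4.35) and under every other setting tried, where the highest adjusted p was 0.0129. In PyMT tumors it fell by 2.73 (SE 0.75, adjusted p = 0.0301), a call that ended when any of the 6 libraries was left out. In 6 day PyMT organoids the difference was -1.52 (SE 0.62, adjusted p = 0.179) and in Neu-NDL organoids -1.81 (SE 0.72, adjusted p = 0.161), each lower in all libraries. Without Neu-NDL replicate 1 the latter was -2.81 (adjusted p = 0.0453), with 1 of 10 members then called beside 6.95% of all genes. PyMT tumors were above Neu-NT tumors by 1.79 (SE 0.75, adjusted p = 0.142). The 10 myoepithelial markers summed to 2723 to 3499.9 CPM in WT organoids, 92.4 to 331 CPM in PyMT tumors and 106 to 2887 CPM in Neu-NT tumors. In PyMT organoids they summed to 215 to 474 CPM at day 0, 109 to 7449.9 CPM at day 6 and 1620.2 to 2634 CPM in the undated pair. Neu-NDL organoids had 129 to 592 CPM. The highest sum of all libraries was in PyMT day 6 replicate 2, where Cdh2 was at 1.78 CPM. The sum mixes markers that differed in direction. Krt14 and Krt17 averaged 1733 and 372 CPM at PyMT day 6, against 859 and 119 CPM in WT organoids. Acta2 and Cnn1 averaged 19.3 and 2.94 CPM, against 612 and 53.2 CPM. Against WT organoids, 6 of the 10 markers were called lower and 0 higher in 6 day PyMT organoids, and 5 lower and 0 higher in Neu-NDL organoids. None of the markers was at 0 in a group. In PyMT tumors 5 of the 10 were called lower and in Neu-NT tumors 6 of the 10, among them Krt5, Acta2 and Cnn1. The part of these markers in the Cdh2 differences was not tested.

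The ratio of Cdh1 to Cdh2 per kilobase summarises the cadherins within each library. It was 47.5, 40.1 and 39.8 in WT organoids and was above that in all 17 other libraries. Neu-NDL organoids had 72.6, 167 and 523, undated PyMT organoids 100.5 and 163, and PyMT day 6 organoids 135, 929 and 402. Day 0 organoids had 951, 405 and 235, PyMT tumors 517, 310.1 and 302, and Neu-NT tumors 795, 1273 and 1554. Between group means Cdh1 spanned 1.94-fold and Cdh2 23.2-fold.

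**Figure D3:**
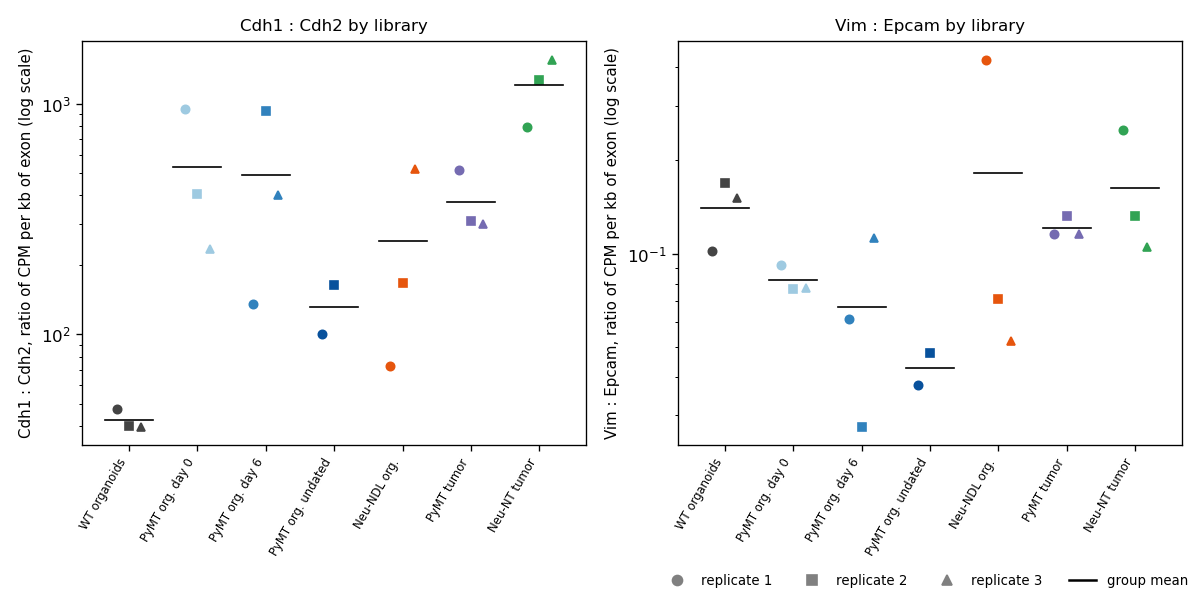
Ratio of Cdh1 to Cdh2 and of Vim to Epcam in each library, from CPM per kilobase of exon, on log axes; symbols mark replicates and bars group means. WT organoids have the lowest Cdh1 to Cdh2 ratios (39.8 to 47.5), and Neu-NDL replicate 1 has the highest Vim to Epcam ratio (0.424).

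Vim encodes vimentin, an intermediate filament protein of mesenchymal cells that macrophages and myoepithelial cells also make. It was called in none of the 8 comparisons. WT organoids had 250.3, 411 and 412 CPM, day 0 organoids 221, 158 and 204 CPM, and PyMT tumors 225, 298 and 326 CPM. PyMT day 6 organoids had 226, 65.1 and 379 CPM and undated organoids 180.3 and 227 CPM. The highest libraries were Neu-NDL replicate 1 at 890.2 CPM, beside 232 and 182 CPM in its group, and Neu-NT replicate 1 at 787 CPM, beside 446 and 314 CPM. Each step in the order of group means, from 516 ± 244 CPM in Neu-NT tumors (SD, n = 3) to 194 ± 32.6 CPM in day 0 organoids (SD, n = 3), was within the larger SD. The ratio of Vim to Epcam per kilobase was 0.424 in Neu-NDL replicate 1 and 0.251 in Neu-NT replicate 1. In the other 18 libraries it lay between 0.0276 (PyMT day 6 replicate 2) and 0.169.

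Zeb1 and Zeb2 encode zinc finger repressors of Cdh1. Both were lowest in the same 4 libraries of 6 day PyMT organoids and highest in Neu-NDL replicate 1, which held the most fibroblast markers of any organoid library. Zeb1 was at 3.51, 8.18 and 9.53 CPM in WT organoids, 4.42, 6.12 and 8.73 CPM at day 0, 12.4, 6.93 and 12.2 CPM in PyMT tumors and 8.70, 6.35 and 7.51 CPM in Neu-NT tumors. In 6 day PyMT organoids it was at 0.651 and 0.478 CPM in day 6 replicates 1 and 2 and at 1.61 and 0.958 CPM in the undated pair, but at 9.74 CPM in day 6 replicate 3. In Neu-NDL organoids replicate 1 held 31.8 CPM, the highest of all libraries, and the others 2.53 and 2.79 CPM. Over the 20 libraries the genes most like Zeb1 were Pear1 (Pearson r 0.960), Adgra2 (0.954) and the fibroblast and pericyte receptor gene Pdgfrb (0.949) among 11008 genes searched.

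Zeb2 had the same low libraries. It was at 0.543 and 0.478 CPM in PyMT day 6 replicates 1 and 2, at 1.28 and 0.884 CPM in undated organoids and at 10.3 CPM in day 6 replicate 3. WT organoids had 2.35, 8.45 and 4.52 CPM and day 0 organoids 9.10, 9.60 and 9.05 CPM. PyMT tumors had 22.8, 11.5 and 13.7 CPM, all above WT, and Neu-NT tumors 11.6, 6.35 and 25.2 CPM. Neu-NDL organoids had 32.1, 12.7 and 5.94 CPM. The genes most like Zeb2 were Plek (Pearson r 0.961), Syk (0.953) and Nckap1l (0.949), which are genes of blood cells. In the order of group means only the step from day 0 (9.25 ± 0.307 CPM, SD, n = 3) down to WT organoids exceeded the larger SD for Zeb2, and no step did for Zeb1.

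**Figure D4:**
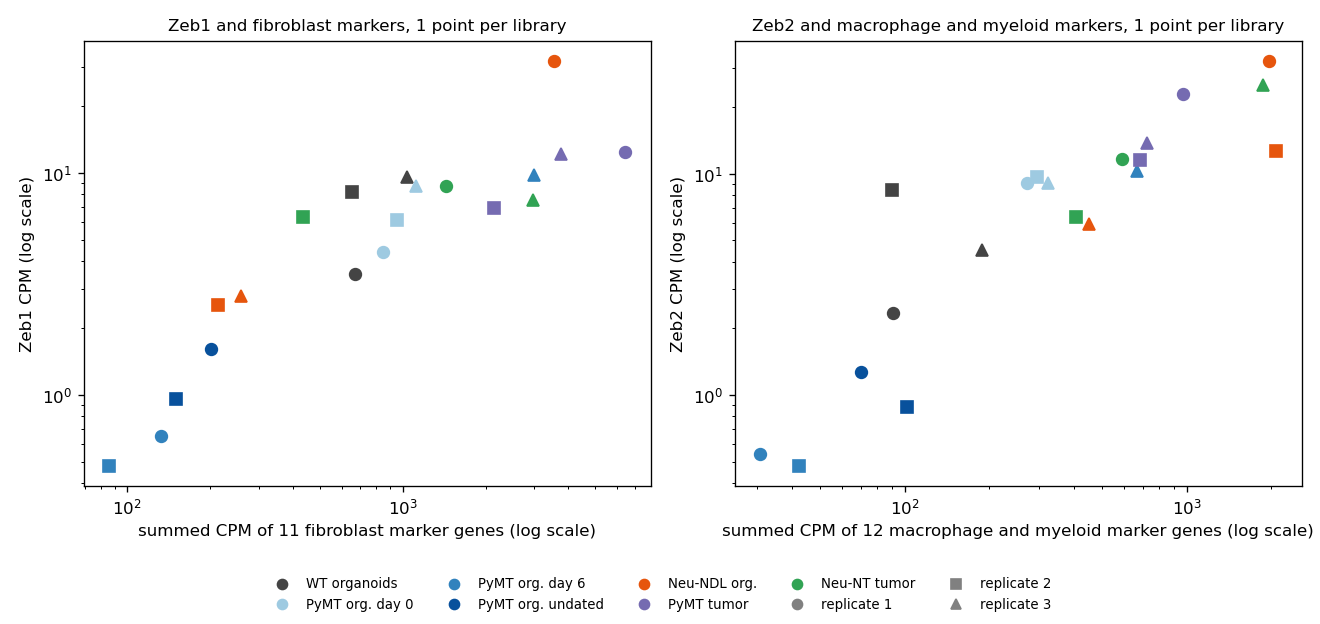
Zeb1 against the summed fibroblast markers and Zeb2 against the summed macrophage and myeloid markers, 1 point per library, log axes, colored by group. The 4 libraries lowest in Zeb1 and in Zeb2 are the same 6 day PyMT organoids (day 6 replicates 1 and 2 and both undated), and day 6 replicate 3 lies far above them on both axes (Zeb1 9.74 and Zeb2 10.3 CPM).

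Against 6 day PyMT organoids, Zeb2 was higher in Neu-NDL organoids by 3.06 (SE 0.83, adjusted p = 0.039), and Zeb1 differed by 2.51 (SE 0.88, adjusted p = 0.0925). In this comparison 3 of 10 members were called, Zeb2 and Twist2 higher and Cdh1 lower, where 7.12% of all genes were called, 4.70% higher and 2.42% lower. The count rests on a few libraries. Without Neu-NDL replicate 1 it was 0 of 10 (background 5.21%), with Zeb2 at 2.21 (adjusted p = 0.135), Zeb1 at 0.31 (adjusted p = 0.86) and Twist2 at 0.83 (adjusted p = 0.523). Without PyMT day 6 replicate 3 it was 4 of 10 (background 16.6%), and without that library and Neu-NT replicate 3 it was 5 of 10 (background 24.3%), with Zeb1 at 3.83 (adjusted p = 0.00356), Zeb2 at 4.47 (adjusted p = 0.000126), Twist2 at 3.59 (adjusted p = 0.0169), Cdh1 at -0.91 (adjusted p = 0.00867) and Esrp1 at -0.38 (adjusted p = 0.0378). The call on Zeb2 also ended without either undated library and without Neu-NDL replicate 2. Fibroblast markers summed to 86.1 to 2996 CPM in the 5 PyMT and 214 to 3533 CPM in the 3 Neu-NDL libraries, and macrophage markers to 30.8 to 666 CPM and 450.4 to 2079 CPM, with no marker at 0 in a group. Their part in the Zeb1 and Zeb2 differences was not tested.

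From day 0 to day 6 of culture, edgeR called 0 of the 10 members in PyMT organoids, and 0 had an unadjusted p under 0.05 (background 0.626%, with 0.166% higher). DESeq2, the replicate block and a fit of only the libraries compared (0.0256% of genes called) also gave 0. Zeb1 differed by -0.82 (SE 0.99, adjusted p = 0.76) and Zeb2 by -1.28 (SE 0.92, adjusted p = 0.559). Without PyMT day 6 replicate 3 both were called lower at day 6, Zeb1 at -3.51 (adjusted p = 0.0309) and Zeb2 at -4.18 (adjusted p = 0.00494), beside 13.0% of all genes, and beside 18.8% when Neu-NT replicate 3 was left out as well. PyMT day 6 replicate 3 was the day 6 library highest in Zeb1 (9.74 CPM) and Zeb2 (10.3 CPM), so leaving it out favors such calls. In the 3 day 0 libraries the fibroblast sums were 852 to 1116 CPM and the macrophage sums 271 to 322 CPM, against 86.1 to 133 and 30.8 to 42.2 CPM in day 6 replicates 1 and 2. The part of these markers in the Zeb1 and Zeb2 values was not tested. Against WT organoids, the 6 day PyMT groups without that library and Neu-NT replicate 3 had 5 of 10 members called (background 16.5%): Cdh1 (0.72) and Epcam (0.61) higher, and Zeb1 (-3.02, adjusted p = 0.0164), Zeb2 (-2.75, adjusted p = 0.00521) and Twist2 (-3.74, adjusted p = 0.0199) lower. Without PyMT day 6 replicate 3 alone, Zeb1, Zeb2 and Twist2 were called (background 10.8%). WT fibroblast sums were 657 to 1034 CPM and macrophage sums 90.2 to 188 CPM.

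The same 2 libraries decided whether Zeb2 passed in 2 further comparisons with WT organoids. Without them it was called higher in PyMT tumors (1.63, adjusted p = 0.0384, 27.0% of genes called) and in Neu-NDL organoids (1.73, adjusted p = 0.0469, 14.5% of genes called). Neither left-out library belongs to these 2 comparisons, so what changed is what all libraries share in the fit, the estimate of spread and the genes tested. In PyMT tumors Zeb2 was also called when only the 6 libraries compared were fitted. In Neu-NDL organoids it was called in no other setting, that without Neu-NDL replicate 1 included. There the fit of all libraries gave 1.72 (SE 0.92, adjusted p = 0.308). Macrophage and myeloid markers summed to 686 to 974 CPM in PyMT tumors and 450.4 to 2079 CPM in Neu-NDL organoids, against 90.2 to 188 CPM in WT organoids, and with all libraries 8 and 4 of the 12 were called higher. Their part in the Zeb2 values was not tested.

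Snai1 encodes the zinc finger factor snail. It was called in 1 comparison, lower in PyMT tumors than in WT organoids by -2.02 on the log2 scale (SE 0.61, adjusted p = 0.0418). PyMT tumors had 4.35, 2.06 and 3.17 CPM, all below the WT libraries at 10.2, 13.2 and 15.7 CPM. The call ended when any of the 6 libraries was left out, with values from -2.32 to -1.80. Neu-NT tumors were tight at 7.71, 8.25 and 6.73 CPM. The 6 day organoids spread widely, with 13.8, 7.45 and 2.60 CPM at PyMT day 6, 38.3 and 19.0 CPM in the undated pair, the highest of all libraries, and 17.6, 8.04 and 3.13 CPM in Neu-NDL organoids. Day 0 organoids had 4.05, 4.75 and 9.51 CPM. In the order of group means only the step from undated (28.7 ± 13.6 CPM, SD, n = 2) to WT organoids (13 ± 2.74 CPM, SD, n = 3) exceeded the larger SD. Snai1 did not share the low libraries of Zeb1 and Zeb2, and the genes most like it were Cx3cl1 (Pearson r 0.909), Calu (0.896) and Pik3r2 (0.893).

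Twist1 and Twist2 encode related helix-loop-helix factors. Twist1 was highest in Neu-NT tumors, at 13.9, 13.0 and 5.33 CPM, against 1.58, 2.48 and 2.80 CPM in WT organoids. The groups did not overlap, and the difference of 2.23 (SE 0.81, adjusted p = 0.0639) did not pass. It passed in DESeq2, in a fit of only these 6 libraries, and without Neu-NT replicate 3 and PyMT day 6 replicate 3 (2.56, adjusted p = 0.019, when 3 of 10 members were called beside 29.0% of genes). The 6 pericyte markers summed to 369, 503 and 255 CPM in Neu-NT replicates 1 to 3 and to 258, 301 and 312 CPM in WT organoids. Of these markers, 2 were called higher, Kcnj8 (4.35, adjusted p = 0.00488) and Abcc9 (3.34, adjusted p = 0.027), and none was at 0 in either group. Notch3, the marker with the highest mean in both groups, differed by -0.54 (adjusted p = 0.469). In PyMT tumors the 6 markers summed to 247 to 369 CPM. Kcnj8 was also called higher there than in WT organoids (3.42, adjusted p = 0.0229). In day 0 organoids, with a Twist1 mean of 1.27 CPM, the markers summed to 311 to 422 CPM. The part of these markers in the Twist1 values was not tested. PyMT tumors had 3.87, 2.46 and 2.89 CPM and differed from Neu-NT tumors by -1.80 (SE 0.80, adjusted p = 0.163). Elsewhere Twist1 lay between 0.410 CPM (PyMT day 6 replicate 2) and 3.88 CPM, except in Neu-NDL replicate 1 at 7.47 CPM. Its most similar genes were F2r, the thrombin receptor gene (Pearson r 0.895), C1ra (0.886) and Dclk1 (0.879). The step from Neu-NT tumors (10.7 ± 4.70 CPM, SD, n = 3) to the next group was the only one in its order beyond the larger SD.

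Twist2 was counted at 28, 26 and 52 reads in WT organoids (0.723, 0.555 and 1.60 CPM). PyMT organoids gave 1, 1 and 0 reads at day 0, 0, 1 and 3 at day 6 and 5 and 6 in the undated pair, all lower than WT after scaling to library size. The 6 day PyMT groups differed from WT by -3.17 (SE 0.84, adjusted p = 0.0463), the only member called there, and the call remained in 1 of 8 fits that left out a library (-3.78 to -2.59). Neu-NDL replicate 1 held 107 reads and the other Neu-NDL libraries 9 and 5, so that the call against 6 day PyMT organoids (higher, adjusted p = 0.0419) rests on that library. It also ended without day 6 replicate 1 or 2 and without either undated library, and the log2 fold change ranged from 0.83 to 3.62. PyMT tumors had 15, 6 and 4 reads and Neu-NT tumors 4, 4 and 2. Neu-NT tumors differed from WT by -2.67 (SE 0.96, adjusted p = 0.0629). An antisense gene, Gm29100, shares 1477 exon bases with Twist2, and since no strand setting is stated, reads of the 2 genes cannot be told apart.

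In the remaining comparisons edgeR called none of the 10 members. Between day 0 PyMT organoids and PyMT tumors 0 of 10 were called (background 0.444%, with 0.428% higher), by edgeR and by DESeq2, and without the 2 libraries that stood apart (background 1.31%). Twist2, with 2 against 25 reads, was the 1 member with an unadjusted p under 0.05 (adjusted p = 0.574). Between PyMT and Neu-NT tumors 0 of 10 were called by edgeR (background 9.70%, with 4.57% higher and 5.13% lower), and Cdh2, Twist1 and Esrp1 had an unadjusted p under 0.05. DESeq2 called 1 there, Esrp1, as did edgeR with the replicate block and without the 2 libraries that stood apart (background 23.2%).

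Regulators and junction genes that work with the members changed in other places. Of 14 further transition factors tested, Foxc1 rose against WT organoids in 6 day PyMT organoids (1.17, adjusted p = 0.0229), PyMT tumors (0.95, adjusted p = 0.0362) and Neu-NT tumors (1.20, adjusted p = 0.00866). The Neu-NT call remained in all 13 alternative fits, while leaving out a library kept the call in 4 of 8 fits for 6 day PyMT organoids and in 0 of 6 for PyMT tumors, where it also ended with the replicate block and without the filter. Id3, an inhibitor of helix-loop-helix factors, was the only one to fall in 6 day PyMT organoids (-2.11, adjusted p = 0.0364), which remained in 3 of 8 such fits. In Neu-NT tumors Snai3, another snail gene, rose from 0.207, 0.0640 and 0.0615 CPM in WT to 4.50, 3.06 and 12.1 CPM (log2 fold change 5.83, SE 0.80, adjusted p = 0.000427). Tcf4, an E protein that pairs with Twist factors, fell there from 87.1, 125 and 93.9 CPM to 16.5, 14.7 and 43.6 CPM (-2.04, SE 0.36, adjusted p = 0.00179). The Snai3 and Tcf4 calls remained in all 13 alternative fits. Between PyMT and Neu-NT tumors 2 of the 14 were higher and 2 lower in PyMT tumors, where 9.70% of all genes were called. The clearest were Snai3 at -4.45 (adjusted p = 0.00287) and Tcf4 at 1.87 (adjusted p = 0.00629). None of the 14 was called in Neu-NDL against WT organoids.

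Of 10 adherens junction partners, Cdh3, the P-cadherin gene of myoepithelial cells, fell against WT organoids in Neu-NDL organoids (-2.63, adjusted p = 0.0231), PyMT tumors (-3.79, adjusted p = 0.00506) and Neu-NT tumors (-3.59, adjusted p = 0.00174). It was at 55.7, 68.5 and 59.6 CPM in WT organoids and at 3.64 to 5.33 CPM in the 6 tumor libraries, which did not overlap. In PyMT day 6 organoids it was at 34.4, 28.1 and 3.57 CPM, the last in replicate 3. The calls in both tumors remained in all 13 alternative fits and the Neu-NDL call in 1 of 6 fits that left out a library. Myoepithelial markers summed to 129 to 592 CPM in Neu-NDL organoids against 2723 to 3499.9 CPM in WT organoids, with 5 of 10 called lower, and their part in the Cdh3 differences was not tested. Ctnnd1, the p120 catenin gene that steadies cadherins at the membrane, rose in Neu-NT tumors (1.05, adjusted p = 0.00456) in all 13 alternative fits. Jup (plakoglobin) was called there at 3.16 (adjusted p = 0.0125), but it stood at 465, 509.9 and 8525 CPM, and without replicate 3 the difference was 0.46 and was not called. Nectin1 was the only partner to rise in 6 day PyMT organoids (1.40, adjusted p = 0.0465), and it was lower in Neu-NDL than in 6 day PyMT organoids (-1.49, adjusted p = 0.0283). Leaving out a library kept these calls in 2 and 5 of 8 fits.

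Among 18 other epithelial surface and junction genes, 4 rose and 0 fell in Neu-NT tumors against WT organoids, where 19.0% of all genes were called (10.5% higher). Without the 2 libraries that stood apart 3 rose and 1 fell, where 29.0% were called. The 4 were Spint1 (1.25, adjusted p = 0.00562), which inhibits surface proteases, and the claudin genes Cldn3 (1.40, adjusted p = 0.00985), Cldn7 (1.03, adjusted p = 0.0208) and Cldn4 (2.51, adjusted p = 0.0321). Without single libraries, Spint1 remained called in 6, Cldn3 in 5, Cldn7 in 3 and Cldn4 in 1 of 6 fits. Spint1 was at 283, 288 and 193 CPM in Neu-NT and 119, 99.8 and 102 CPM in WT libraries. In PyMT tumors 0 rose, and the desmosome gene Dsp fell (-2.28, adjusted p = 0.0437), a call that ended when any of the 6 libraries was left out. Neu-NDL organoids were lower than 6 day PyMT organoids in F11r (-0.59, adjusted p = 0.0283) and Pkp3 (-0.70, adjusted p = 0.0442), calls that remained in 4 and 2 of 8 such fits. In Neu-NT tumors the list's median log2 fold change was 0.13, beside 0.03 over all genes.

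Of 12 epithelial transcription and splicing regulators, the second epithelial splicing regulator gene Esrp2 included, none was called in Neu-NT tumors, Neu-NDL organoids or 6 day PyMT organoids against WT. In PyMT tumors Ehf (1.88, adjusted p = 0.0263) and Rbm47 (1.63, adjusted p = 0.0445) rose. Ehf was at 898, 736 and 1196 CPM there and at 226, 309 and 234 CPM in WT organoids. The Ehf call remained in 1 and the Rbm47 call in 0 of 6 fits that left out a library, and both ended with the replicate block. Without the 2 libraries that stood apart, 3 of the list fell in each tumor, and Esrp2, named here as the paralog of Esrp1 after its values were seen, was among them in both. In the same setting 2 of the 12 rose in PyMT tumors and 0 in Neu-NT tumors. Of all genes, 27.0% and 29.0% were then called in either direction. The share called lower alone is not given for this setting, so the count of 3 lower has no like background here. Of 17 tested mesenchymal adhesion and matrix genes, 1 rose and 0 fell in each tumor against WT organoids. Of all genes, 6.45% were called higher in PyMT tumors and 10.5% in Neu-NT tumors, so the count is not above these shares. The gene was Fap, the fibroblast activation protein gene, in PyMT tumors (3.78, adjusted p = 0.0339) and in Neu-NT tumors (3.64, adjusted p = 0.0271). These calls remained in 1 and 3 of 6 fits that left out a library. Its 6 tumor libraries held 8.25 to 12.3 CPM and the WT libraries 0.620 to 0.918 CPM. Fibroblast markers summed to 2147 to 6429 CPM in PyMT tumors, 435 to 2976 CPM in Neu-NT tumors and 657 to 1034 CPM in WT organoids, and their part in the Fap difference was not tested.

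Of 11 genes of transition-inducing signals, the TGF-beta receptor gene Tgfbr2 rose in Neu-NDL organoids (1.15, adjusted p = 0.0185) and in Neu-NT tumors (0.77, adjusted p = 0.0375). It was at 315, 293 and 319 CPM in Neu-NDL and 130.3, 151 and 135 CPM in WT organoids. The Tgfbr2 call remained in 1 of 6 fits that left out a library in each comparison. Tgfb3 fell in PyMT tumors (-1.23, adjusted p = 0.0298), a call that ended when any library was left out. Tgfb1 (-1.17, adjusted p = 0.0405) and Smad3 (-0.65, adjusted p = 0.0393) were lower in PyMT than in Neu-NT tumors, calls that remained in 2 and 1 of 6 such fits.

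From day 0 to day 6, and between day 0 organoids and PyMT tumors, none of these lists had a called gene. Without the 2 libraries that stood apart, 5 of the 10 adherens junction partners were higher at day 6 than at day 0 and 0 lower, among them the catenin genes Ctnna1 and Ctnnb1, where 18.8% of all genes were called. In the same setting 7 of the 10 partners were lower and 0 higher in Neu-NDL than in 6 day PyMT organoids, where Cdh1 was also lower and 24.3% of all genes were called. Of the 17 mesenchymal genes, 6 were then higher and 1 lower against the same 24.3%. With all libraries, 1 of the 10 partners was lower and 0 of the 17 were called, where 7.12% of all genes were called. The left-out PyMT day 6 replicate 3 held 109 CPM of myoepithelial markers, against 1258 and 7449.9 CPM in replicates 1 and 2. The part of these markers in the counts was not tested. The members named from the setting without the 2 libraries were chosen after their values were seen.

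Of the 5 miR-200 hairpin genes, whose mature sequences are printed above, only Mir200a had enough reads to be tested. Short mature microRNAs are not captured by polyadenylated libraries, so these reads come from longer transcripts over the hairpin. WT organoids had 21, 37 and 22 such reads, PyMT tumors 2, 1 and 0, and Neu-NT tumors 1, 3 and 0. PyMT organoids had 0, 0 and 2 at day 0 without culture, 4, 11 and 1 at day 6 and 6 and 7 in the undated pair, and Neu-NDL organoids had 11, 6 and 10. Mir200a was lower in PyMT tumors (adjusted p = 0.0155) and in Neu-NT tumors (adjusted p = 0.016), and each call remained in 4 of 6 fits that left out a library. The WT libraries were cultured and the tumor sections were not, so culture and tumor cannot be told apart here. Mir429 had no read in any library, and Mir141 had 1 in each of 2 libraries. In the fit of all libraries, Zeb1 and Zeb2, with 9 seed matches each, were not called against WT organoids in either tumor, while Zeb2 was called higher in PyMT tumors in the other settings named above.

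The genes most similar to the epithelial members over the 20 libraries, given as a description since libraries share groups and depth, were Iqgap1 (Pearson r 0.859), Dnm2 (0.857) and Sf3a1 (0.854) for Cdh1, and Zfp7 (0.841), Hspb6 (0.839) and Tigd2 (0.834) for Epcam. For Esrp1 they were Ecpas (0.966), Ubap1 (0.941) and Map3k7 (0.941). Their Spearman rho with Esrp1 was lower, at 0.805, 0.555 and 0.684. For Cdh2 they were Ceacam20 (0.904), Rflnb (0.900) and Boc (0.880), for Vim Gng2 (0.876), Serpina3n (0.854) and Cuedc2 (0.834), and for Twist2 Zfp397 (0.835), Zfp799 (0.817) and Timp1 (0.797).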

How the data were processed

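The authors deposited raw counts of reads per gene, 1 table per library in the layout of htseq-count, with 45318 Ensembl gene IDs and 5 summary rows, which were left out of totals and tests. Per the submitters' processing notes, CASAVA, FastQC, STAR, HTSeq, DESeq2 and the genome mm10 were used. Versions, annotation release and strand setting are not given in the sources used here. Reads on no gene came to 5.60 to 12.3% and ambiguous reads to 4.68 to 7.39% of the reads on genes, on no gene or ambiguous. Without a strand setting, reads of Zeb2 and Zeb2os (653 shared exon bases), Zeb1 and Gm10125 (198) and Esrp1 and Gm26663 (127) cannot be told apart.

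Symbols and exon lengths came from GENCODE M21, which matched 44585 IDs. One edgeR 4.0.16 quasi-likelihood fit (R 4.3.3, TMM, filterByExpr, robust, 13 residual degrees of freedom) covered 20 libraries in 7 groups. Standard errors were derived from each log2 fold change and its F statistic. CPM use TMM-adjusted library sizes. Alternatives were RLE scaling, DESeq2 1.42.0, no filter, only the libraries compared, a replicate block, day 6 or undated PyMT organoids alone, and leaving out single libraries. After the data were seen, 2 were added: a fit without PyMT day 6 replicate 3 and Neu-NT replicate 3, and one with Neu-NT replicates 1 and 2 summed. Replicates differed by more than sampling noise (chi-square per gene 50.4 to 634). Replicate numbers passed the pairing check only for day 6 and day 0 PyMT organoids (r over genes 0.287, 0.428 and 0.317), where the labels state no pairs. The members and gene lists were chosen with earlier results of these data known. Named were all members, up to 3 called genes in each direction per list and comparison, and the 3 protein coding genes most correlated with each member at a mean of at least 2 log2 CPM (prior count 2). The fit was tested on simulated data. Motifs were searched in Python. The result for 1 gene of the lists is not reported here.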

Additional observations from a re-analysis of the deposited data

How the results depend on the processing

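None of the 21 member fold changes followed under the alternatives changed sign, and no called list gene did, cell type markers aside. The other member values in the plot of log2 fold changes against WT organoids were not followed in this way. Their signs can rest on 1 library. Zeb1 in Neu-NDL organoids differed from WT by 0.81, with 31.8 CPM in replicate 1. Replicates 2 and 3 held 2.53 and 2.79 CPM, below the WT libraries at 3.51, 8.18 and 9.53 CPM. Call counts did move. For 6 day PyMT against WT organoids (1 called) they were 0 without the filter, with the replicate block, with either 6 day PyMT set alone and with Neu-NT replicates 1 and 2 summed, 2 in DESeq2, 5 without the 2 libraries that stood apart, and 0 to 3 when single libraries were left out. For PyMT tumors against WT organoids (2) they were 3 without the 2 libraries and with only the libraries compared, 1 without the filter and with the summed libraries, and 0 with the block and in each fit without 1 library. For Neu-NT tumors against WT organoids (2) they were 4 in DESeq2, 3 with only the libraries compared and without the 2 libraries, 1 with the summed libraries and 1 to 3 without single libraries. For Neu-NDL against WT organoids (0) they were 1 without the 2 libraries and 0 to 1 without single ones. For day 6 against day 0 (0) they were 2 without the 2 libraries and 0 to 2 without single ones. Between PyMT and Neu-NT tumors (0) they were 1 in DESeq2, with the block and without the 2 libraries, and 0 to 1 without single ones. For Neu-NDL against 6 day PyMT organoids (3) they were 1 without the filter and with the block, 0 with only the libraries compared and with either PyMT set alone, 4 in DESeq2, 5 without the 2 libraries and 0 to 4 without single ones. The causes were not tested. RLE scaling changed no count. With a replicate block, the only comparison whose numbers passed the pairing check, day 6 against day 0, still had 0 calls. Leaving 1 undated library out assumes that the other varies like the remaining groups. On raw library totals, the levels of Zeb2 at day 0 and of Epcam in undated organoids moved by more than their small SDs. Depth limits Twist2 and the Mir200a hairpin gene, which have fewer than 110 reads in every library.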
